A study of Rattus norvegicus with 6 samples.

Results

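Complement components known to be made by glial cells were followed in cultures of spinal cord neurons that were taken from 1-day-old Sprague-Dawley rats. They were chosen by symbol as C1QA, C1QB, C1QC, C1R, C1S, C4B, C3, CFB and SERPING1, and 8 of these 9 genes were listed among the 17648 genes of the expression matrix. CFB was not listed and has no value here. RNA was sequenced in 6 libraries. A non-targeting small interfering RNA (siRNA) had been given to the 3 Glu + siR-Con libraries, and an siRNA directed at galectin-3 (GAL3, gene LGALS3) to the 3 Glu + siR-GAL3 libraries. Both groups came from cells that were exposed to Ara-C at 0.05 mg/mL 24 h after plating to limit dividing cells, and both were cultured for 3 days before injury. According to the methods and the design text, both groups then received 10 μM glutamate for 1 h and stayed 16 h without it. The treatment labels instead name saline for the siR-Con group, and they call the GAL3 transfection a knockout. If those labels were right, glutamate and the siRNA could not be told apart. The methods speak of independent repeats for the study's data in general, but the labels tie no library to a culture or litter. The p-values therefore measure the spread between the deposited values of the libraries, which may be technical.

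Complement is a cascade of blood and tissue proteins that tags cells and synapses for removal. In the classical arm, C1q, built from the chains of C1QA, C1QB and C1QC, binds its target and carries the proteases C1r and C1s, which cleave C4 and C2 and so start the cleavage of C3. In the central nervous system C1q comes mainly from microglia, while astrocytes can make C3, C4 and the C1 proteases when they become reactive. C1q and C3 mark synapses that microglia engulf. The alternative arm runs through factor B (CFB), and C1 inhibitor (SERPING1) blocks C1r and C1s. Interferon and inflammatory signals are known inducers of C1r, C1s, C3 and SERPING1.

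The deposited values were on a linear scale derived from FPKM (fragments per kilobase of transcript, scaled to the size of the library), after the authors had removed batch effects and corrected differences within groups, so read depth is unknown for every library, and 3.86% of all values were below 0. The SDs given here are what was left after that correction. The p-values and the overlap between groups rest on the same remaining spread, so the p-values may be too small. Exactly equal values divided the libraries into sets, with replicate 1 of each group in set 1, the other siR-Con libraries and siR-GAL3 replicate 3 in set 2, and only siR-GAL3 replicate 2 in set 3. The last also stood apart on principal component 1, which held 65.2% of the variance. The targeted gene LGALS3 was listed between 54.4 and 77.4 in siR-Con and at -1.64, 32.3 and 18.5 in the siR-GAL3 libraries. Values of a group are given throughout in the order of its replicates 1, 2 and 3. The label of the cells was checked against markers. The neuronal markers RBFOX3 (NeuN) and NEFL were below 1 in every library, MAP2 and ELAVL3 had siR-Con means of 17.4 and 8.92, and the astrocyte marker GFAP lay between 514.8 and 757.7 and the myelin gene MBP between 628.6 and 918.5. Of the 9 neuronal markers listed, 4 had a mean below 1 over all libraries and 5 reached it, among them TUBB3 with 4.63. Against the label of neurons, glial markers were thus among the highest, while the neuronal markers were mixed.

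Promoters of a C1 protease, of C3 and of a C1q chain are shown first, since the results differ between these kinds of member. They are from RefSeq on assembly GRCr8, since the deposited matrix gives no sequence and no genome build. RefSeq lists C1qa, C1qb and C1qc as direct neighbours on chromosome 5 and C1r and C1s as direct neighbours on chromosome 4. The RefSeq table held a promoter window for 5 of the 9 members, each from 250 bases before to 50 after the start of the gene. In the C1r window (chr4:159098763-159099062, plus strand) and the C3 window (chr9:2201290-2201589, minus strand) the capitals mark a match to TTGCNNAA, the C/EBP motif, and in the C1qa window (chr5:154419884-154420183, minus strand) a match to TTCNNNGAA, the gamma-activated sequence of interferon signalling.
C1r: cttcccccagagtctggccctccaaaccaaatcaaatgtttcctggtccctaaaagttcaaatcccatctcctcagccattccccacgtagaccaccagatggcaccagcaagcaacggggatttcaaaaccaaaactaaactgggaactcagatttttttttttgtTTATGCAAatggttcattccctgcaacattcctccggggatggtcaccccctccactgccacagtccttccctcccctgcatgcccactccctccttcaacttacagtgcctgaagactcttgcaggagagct
C3: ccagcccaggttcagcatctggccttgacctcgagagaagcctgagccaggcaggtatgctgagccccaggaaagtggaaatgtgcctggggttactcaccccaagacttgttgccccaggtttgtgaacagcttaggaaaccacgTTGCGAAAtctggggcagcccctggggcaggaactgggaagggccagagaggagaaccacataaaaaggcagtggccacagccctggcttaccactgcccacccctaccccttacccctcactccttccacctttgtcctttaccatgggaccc
C1qa: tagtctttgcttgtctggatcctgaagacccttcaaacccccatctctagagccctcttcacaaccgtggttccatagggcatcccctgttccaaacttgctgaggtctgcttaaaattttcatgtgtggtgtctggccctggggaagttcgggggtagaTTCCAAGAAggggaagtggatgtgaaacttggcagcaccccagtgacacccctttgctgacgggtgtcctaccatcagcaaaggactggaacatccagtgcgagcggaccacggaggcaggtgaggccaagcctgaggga
Both strands were searched, and in C1r the match reads on the opposite strand. The C/EBP motif was held by 10.6% of all 33469 promoter windows and the gamma-activated sequence by 8.87%, so these matches describe the letters of the windows and not bound sites. The interferon-stimulated response element (GAAA, any 2 bases, GAAA), held by 3.92% of all windows, and the PU.1 motif GAGGAAGT, held by 2.42%, were in none of the 5 windows. The kappa B motif (GGG, any 3 bases, TTCC) was held by 5.37% and, among the members, by C1qb.

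Rats carry C4a and C4b as near copies on chromosome 20, and RefSeq also gives C4b as a synonym of C4a. Their promoter windows (C4a at chr20:4010107-4010406 and C4b at chr20:4201729-4202028, both plus strand) are printed to show how alike the copies are around their starts. Most of each window lies before the start of the gene, so it does not show how many reads the copies share. Capitals mark the 12 bases that differ among 291 aligned bases, which were 95.9% identical.
C4a: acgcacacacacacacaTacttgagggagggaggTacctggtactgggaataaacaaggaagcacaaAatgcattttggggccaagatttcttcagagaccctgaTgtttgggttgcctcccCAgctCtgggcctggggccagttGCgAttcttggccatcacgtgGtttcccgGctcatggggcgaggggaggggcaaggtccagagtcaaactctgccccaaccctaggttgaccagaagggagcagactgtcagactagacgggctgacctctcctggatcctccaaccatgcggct
C4b: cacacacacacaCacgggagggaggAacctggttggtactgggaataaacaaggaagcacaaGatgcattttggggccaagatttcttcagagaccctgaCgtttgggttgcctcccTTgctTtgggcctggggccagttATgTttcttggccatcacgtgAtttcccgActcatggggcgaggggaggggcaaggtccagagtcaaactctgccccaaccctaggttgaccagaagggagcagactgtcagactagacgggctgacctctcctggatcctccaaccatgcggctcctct

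In the Glu + siR-GAL3 group the C1 proteases and C3 were listed at 2.20 to 3.36 times their siR-Con means and C1 inhibitor 5.55 units above its siR-Con mean, while the means of the C1q chains were 7.87% to 23.4% higher. In limma on log2(value + 1), 6 members had the mean of at least 1 over all libraries that was needed for testing. In each of these 6 both group means were above 1. For SERPING1 the siR-Con mean of 1.02 rested on replicate 1 (3.09), since replicates 2 and 3 were 0.286 and -0.322. C1R was also below 1 in siR-Con replicates 2 and 3 (0.843 and 0.915). C3 and C4B did not reach the mean needed for testing. All 6 had a log2 fold change above 0, with a median of 0.57, against -1.2e-05 over all 8495 genes tested. An unadjusted p under 0.05 was found for 5 of the 6, all higher in siR-GAL3, where 4.41% of all genes tested passed in that direction and 4.25% in the other. None of the 6 had a Benjamini-Hochberg adjusted p under 0.05 in limma, nor did any gene tested (0%), while 8.66% of genes had an unadjusted p under 0.05. Over all 8 listed members, tested or not, 7 were higher in every siR-GAL3 library than in every siR-Con library, C1QA being the exception, and the same held for 9.01% of all rows. Among the genes tested, the counts were 5 of 6 members and 10.3% of all genes. Since these are bulk libraries, more cells of one type and more RNA per cell cannot be told apart.

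**Figure D1:**
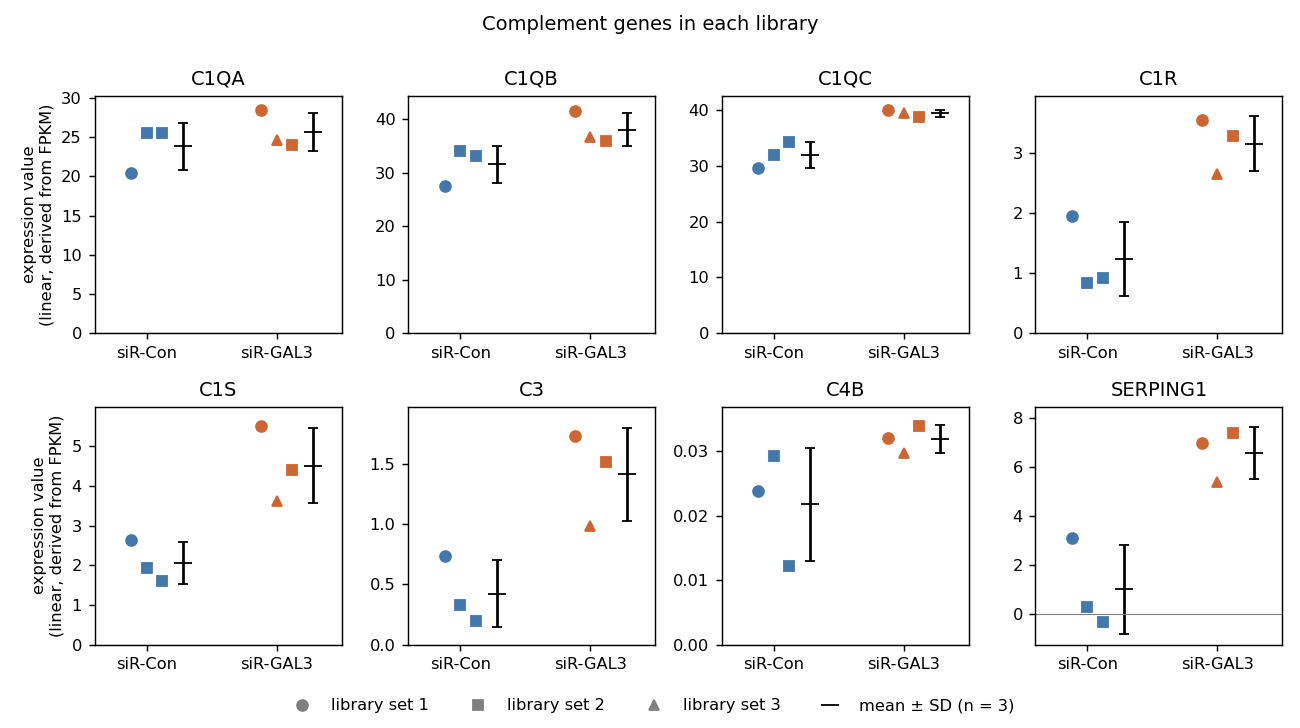
Expression value (linear, derived from FPKM) of the 8 listed members in each library, by group; point shapes give the library set, and bars the mean ± SD of 3 libraries. The groups overlap only in C1QA, C4B is listed at or below 0.0340, and SERPING1 is listed below 0 in siR-Con replicate 3.

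The C1q chains had the highest levels of the members, each with a mean above that of 98.1% or more of all rows. C1QA, the A chain, was 20.4, 25.5 and 25.5 in siR-Con and 28.5, 24.6 and 24.0 in siR-GAL3. The groups overlapped, and its last pair of siR-Con values was exactly equal. Its means were 23.8 ± 2.96 in siR-Con and 25.7 ± 2.41 in siR-GAL3 (SD, n = 3 each), and its log2 fold change of 0.11 had a 95% interval from -0.16 to 0.38 (limma, unadjusted p = 0.369, adjusted p = 0.674).

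C1QB, the B chain, was 27.5, 34.1 and 33.0 in siR-Con and 41.6, 36.6 and 36.0 in siR-GAL3. Its lowest siR-GAL3 library lay above its highest siR-Con library, and its mean was 20.7% higher in siR-GAL3 (log2 fold change 0.27, standard error 0.10, unadjusted p = 0.0381, adjusted p = 0.541 in limma). This unadjusted p depended on single libraries. It was 0.118 without siR-Con replicate 1, 0.0562 without siR-Con replicate 3 and 0.118 without siR-GAL3 replicate 1. C1QC, the C chain, was 29.7, 31.9 and 34.2 in siR-Con and 40.0, 39.4 and 38.8 in siR-GAL3. The C1QC values of siR-GAL3 lay close together and apart from siR-Con, with means of 39.4 ± 0.625 and 31.9 ± 2.27 (SD, n = 3 each), 23.4% higher. Its log2 fold change was 0.30 (standard error 0.07, unadjusted p = 0.00524, adjusted p = 0.305 in limma), and its unadjusted p stayed under 0.05 in all 6 fits with a library left out.

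Within the library sets, the C1q chains differed in their behaviour. In set 1, C1QA, C1QB and C1QC were higher in siR-GAL3 by 8.05, 14.1 and 10.3 units. In set 2, C1QA was lower in siR-GAL3, at 24.0 against 25.5, while C1QB and C1QC were higher by 2.43 and 5.71 units. The direction of C1QA therefore differed between the sets. Set 1 held 1 library of each group and set 2 held 1 siR-GAL3 library, so set and spread between libraries cannot be told apart.

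The chains of C1q are needed together in the protein, so their ratios were compared within each library on the per-length scale. The ratio of C1QB to C1QA was 1.33 ± 0.0282 in siR-Con and 1.48 ± 0.0187 in siR-GAL3 (SD, n = 3 each), without overlap between the groups. The ratio of C1QC to C1QA was between 1.25 and 1.45 in siR-Con and between 1.41 and 1.61 in siR-GAL3, and the groups overlapped. C1QC and C1QB had almost equal values, with ratios between 0.936 and 1.08 over all 6 libraries, so these chains did not differ beyond their spread. The ratios were chosen after the values were seen and were not tested.

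**Figure D2:**
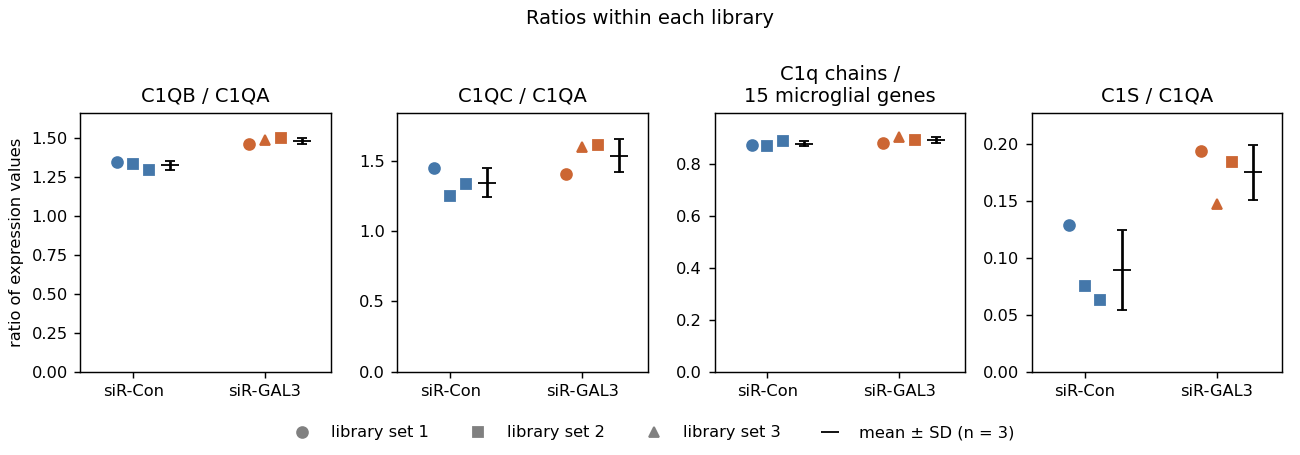
Ratio of expression values within each library (C1QB to C1QA, C1QC to C1QA, the summed C1q chains to the summed 15 microglial genes tested, and C1S to C1QA), by group, with shapes for the library set and bars for the mean ± SD of 3 libraries. The ratio of C1q to microglial genes lies between 0.868 and 0.903 in all libraries, while C1S to C1QA separates the groups.

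Markers of microglia, the main known source of C1q, were also higher. Of 16 microglial genes, 15 were tested, and 12 had a log2 fold change above 0, with a median of 0.09. At an unadjusted p under 0.05, 6 were higher in siR-GAL3 and none lower, where 4.41% of all genes tested were higher. CD68, a lysosomal protein of phagocytes, and AIF1 (IBA1) had log2 fold changes of 0.54 and 0.57. CTSS and FCER1G, the most abundant of the list, had 0.30 and 0.47, and CSF1R, the growth factor receptor of microglia, had 0.08. The homeostatic receptors P2RY12 and CX3CR1 had 0.02 each. The summed value of the 15 genes was between 88.9 and 105.4 in siR-Con and between 110.8 and 125.2 in siR-GAL3, and that of the C1q chains between 77.6 and 92.8 and between 98.8 and 110.1. The C1q sum was therefore a nearly fixed multiple of the microglial sum, 0.876 ± 0.00957 in siR-Con and 0.891 ± 0.0118 in siR-GAL3 (SD, n = 3 each). The part of the microglial genes in the C1q values was not tested.

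The proteases of the C1 complex differed more than C1q. C1R was 1.95, 0.843 and 0.915 in siR-Con and 3.53, 2.64 and 3.27 in siR-GAL3. The groups did not overlap, and the mean of 3.15 ± 0.461 in siR-GAL3 was 2.55 times that of 1.23 ± 0.618 in siR-Con (SD, n = 3 each). The log2 fold change of C1R was 0.92 (standard error 0.19, unadjusted p = 0.00182, adjusted p = 0.215 in limma). C1S, the protease that C1r activates, was 2.63, 1.92 and 1.61 in siR-Con and 5.51, 3.63 and 4.41 in siR-GAL3. Each siR-GAL3 library lay above each siR-Con library. Its mean of 4.52 ± 0.948 in siR-GAL3 was 2.20 times that of 2.05 ± 0.522 in siR-Con (SD, n = 3 each), with a log2 fold change of 0.85 (standard error 0.16, unadjusted p = 0.00120, adjusted p = 0.171 in limma).

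Both proteases were highest in replicate 1 of each group and higher in siR-GAL3 within each library set. C1R was higher by 1.59 units in set 1 and by 2.39 in set 2, and C1S by 2.88 and 2.64. When limma was given the library sets as blocks, the adjusted p was 0.0232 for C1R and 0.00692 for C1S, and 1.25% of all genes passed 0.05. When siR-GAL3 replicate 2 was left out, it was 0.0393 for C1R and 0.0222 for C1S, and 1.97% of all genes passed. As the only library of set 3, siR-GAL3 replicate 2 adds nothing to the blocked comparison either, and both fits therefore drop the same library. Leaving out other libraries gave adjusted p from 0.0388 to 0.832 for C1R and from 0.180 to 0.756 for C1S, the highest without siR-Con replicate 3 and siR-Con replicate 2. C1S to C1QA, a ratio chosen after the values were seen, was between 0.0631 and 0.129 in siR-Con and between 0.147 and 0.194 in siR-GAL3.

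Of the components that C1 acts on, C4B was near 0. It was listed at 0.0239, 0.0293 and 0.0121 in siR-Con and at 0.0321, 0.0297 and 0.0340 in siR-GAL3, and its siR-GAL3 values all lay above siR-Con, the nearest by less than the SD of either group. C4A was between -0.00212 and 0.0102 in all libraries. How reads that match both copies were counted is not given in the sources used here, so the C4 level is uncertain. In a fit without the filter on low values, C4B had a log2 fold change of 0.01 (unadjusted p = 0.0968 in limma). C2, the other substrate of C1s, was higher in each siR-GAL3 library, with means of 0.329 ± 0.0229 in siR-Con and 0.596 ± 0.0798 in siR-GAL3 (SD, n = 3 each), and it was also below the minimum mean for testing.

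C3, on which all arms of the cascade meet, was 0.734, 0.332 and 0.198 in siR-Con and 1.73, 0.989 and 1.52 in siR-GAL3. The groups did not overlap, and the mean of 1.41 ± 0.384 in siR-GAL3 was 3.36 times that of 0.421 ± 0.279 in siR-Con (SD, n = 3 each). An exact permutation test of 3 against 3 gave a two-sided p = 0.1 for C3, the smallest that it allows. Its mean of 0.918 over all libraries was just under the minimum of 1, and in the fit without that filter its log2 fold change was 0.77 (standard error 0.18, unadjusted p = 0.00658, adjusted p = 0.332 in limma). The pseudocount of 1 exceeds most of its values, so this log2 fold change understates the ratio of the means.

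C1 inhibitor, the serpin that blocks C1r and C1s, had the largest log2 fold change of the members tested. SERPING1 was 3.09, 0.286 and -0.322 in siR-Con and 6.95, 5.38 and 7.37 in siR-GAL3. All siR-GAL3 libraries lay above siR-Con replicate 1, which itself lay well above siR-Con replicates 2 and 3. The value below 0 was set to 0 for the test, so the log2 fold change of 2.11 (standard error 0.49, unadjusted p = 0.00346, adjusted p = 0.262 in limma) rests on that floor and was 3.73 with a pseudocount of 0.1. The difference of the means was 5.55 units. SERPING1 was the only member tested that passed the study criteria of |log2 fold change| > 1 and unadjusted P < 0.05, which 0.318% of all genes tested passed, 0.259% in the direction higher in siR-GAL3. This depends on the pseudocount, since with 0.1 the log2 fold changes of C1R and C1S were 1.37 and 1.11 and both also passed. C1R also passed without siR-Con replicate 1 (1.14) and without siR-GAL3 replicate 2 (1.01). Without siR-Con replicate 1 the adjusted p of SERPING1 was 0.00765 and that of C1R 0.0388, where 0.200% of all genes passed. In both genes that library was the highest of siR-Con. With any other library left out, the adjusted p of SERPING1 was between 0.0808 and 0.874. Within the sets SERPING1 was 3.86 units higher in set 1 and 7.39 in set 2.

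In the order of mean level over all libraries, C1QC (35.7), C1QB (34.8) and C1QA (24.8) came ahead of SERPING1 (3.79), C1S (3.28), C1R (2.19), C3 (0.918) and C4B (0.0269), on the per-length scale. In siR-Con C1S (2.05) stood above C1R (1.23) and SERPING1 (1.02), whose spreads overlapped, and in siR-GAL3 SERPING1 (6.57) stood above C1S (4.52) and C1R (3.15). In siR-GAL3 the values of SERPING1 and C1S overlapped, and those of C1S and C1R did not. The difference in order between the groups was not tested.

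The rest of the pathway was taken from a list of 50 other complement genes, of which 44 were listed in the matrix and 15 had a mean high enough for the test. They had a median log2 fold change of -0.05, with 7 above and 8 below 0. An unadjusted p under 0.05 was found for 3, all higher in siR-GAL3, where 4.41% of all genes tested passed in that direction. None of the 15 had an adjusted p under 0.05 in limma. MASP1, the lectin-arm protease related to C1r and C1s, was 2.30 ± 0.352 in siR-Con and 3.82 ± 0.123 in siR-GAL3 (SD, n = 3 each). Its log2 fold change was 0.55 (unadjusted p = 0.000457, adjusted p = 0.129). The others were ITGAM and ITGB2, which together form the receptor for cleaved C3 on microglia, with log2 fold changes of 0.36 and 0.30. ITGAM is also on the microglial list.

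The inhibitors described here beside SERPING1 had log2 fold changes below 0. Clusterin (CLU), the most abundant of them, which blocks the terminal complex, had a log2 fold change of -0.16 (unadjusted p = 0.0601 in limma), and the membrane regulator CR1L had -0.17 (unadjusted p = 0.0891). CD59, which blocks pore formation, had -0.05. Of the alternative arm, properdin (CFP) and factor D (CFD) had -0.10 and -0.05, and of the lectin arm MASP2 and ficolin A (FCNA) had 0.03 and -0.27. The receptor C3AR1 had 0.06. None of these passed an unadjusted p of 0.05. Of all 44 listed genes, 7 were higher in every siR-GAL3 library than in every siR-Con library and 3 were lower. Over all rows, 9.01% were higher in this way, and the share of all rows that was lower is not given here. Of the 15 genes tested, 2 were higher and 2 were lower in this way, beside 10.3% of all genes tested in each direction. The 7 and 3 included genes under the mean for testing, named after their values were seen. C5AR1, the C5a receptor, was 0.662 ± 0.234 in siR-Con and 1.28 ± 0.182 in siR-GAL3 (SD, n = 3 each). Of the terminal complex, C7 was lower, with means of 0.512 in siR-Con and 0.248 in siR-GAL3, and C6 was higher, with means of 0.0367 and 0.127.

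**Figure D3:**
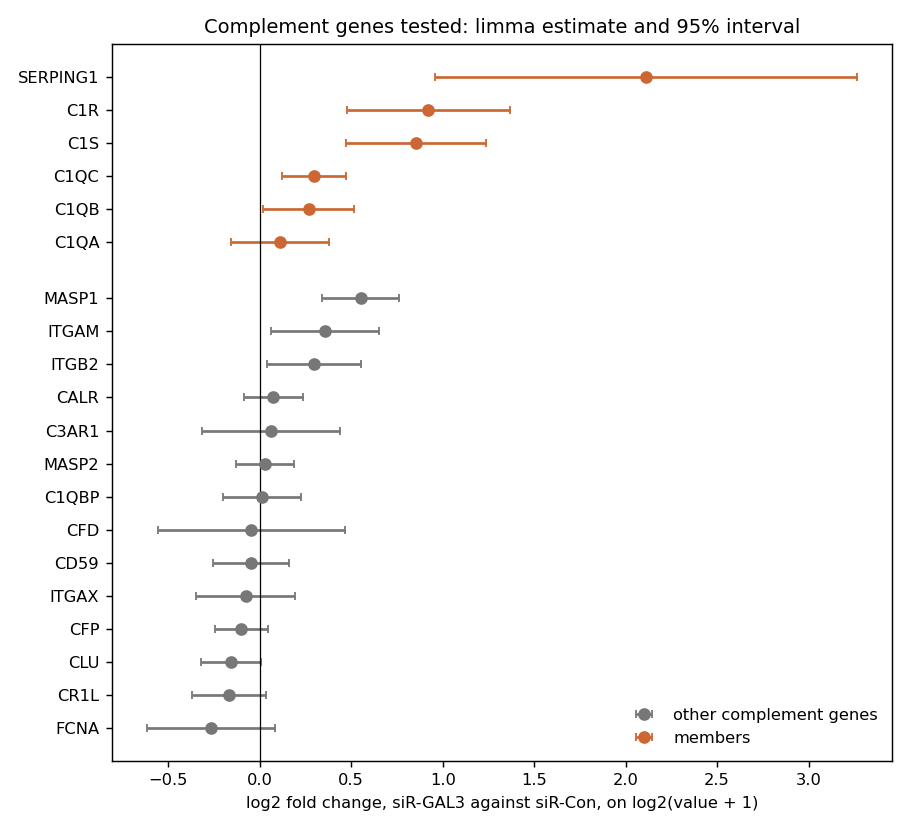
Log2 fold change with its 95% interval (limma, on log2(value + 1)) of the 6 members and of other complement genes tested, siR-GAL3 against siR-Con. The intervals of SERPING1, C1R, C1S, C1QC and C1QB lie above 0, as do those of MASP1, ITGAM and ITGB2, and none of these genes had an adjusted p under 0.05.

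Astrocytes, oligodendrocytes and fibroblasts can also make complement. Of 10 astrocyte markers, 8 were below 0 and 4 had an unadjusted p under 0.05, all 4 lower in siR-GAL3, and their median was -0.13 (log2). GFAP, the most abundant, had -0.31 and the water channel AQP4 had -0.21 (unadjusted p = 0.160 in limma). Of 5 fibroblast markers tested, 3 had an unadjusted p under 0.05, all 3 lower, with a median of -0.42. COL1A1 and COL3A1 had -0.42 and -0.50. Beside the astrocyte and fibroblast counts, 4.25% of all genes tested were lower at that p. The oligodendrocyte lineage had a median of 0.11 and the 5 neuronal markers tested a median of 0.04. STMN2 was the only neuronal marker with an unadjusted p under 0.05, at a log2 fold change of 0.33, but its siR-Con mean was 0.822 and it reached the mean for testing only through siR-GAL3 (1.29). None of the oligodendrocyte lineage had one. Of the endothelial markers 3 were listed, and none reached a mean of 1. C1R, C1S and SERPING1 thus lay above 0 while the markers of astrocytes and fibroblasts lay mostly below it. Summed values were 937.4 to 1077 in siR-Con and 810.6 to 874.9 in siR-GAL3 for the astrocyte list, and 43.0 to 50.6 and 33.0 to 38.1 for the fibroblast list. Their part in the complement values was not tested.

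Genes of interferon and acute-phase signals, which are known to induce C1r, C1s, C3 and SERPING1, were listed beside them. Of 36 such genes 21 were tested, with 19 above 0 and a median of 0.60. An unadjusted p under 0.05 was found for 16, all 16 higher in siR-GAL3, where 4.41% of all genes tested passed in that direction. The interferon part, 10 of its 24 genes tested, had a median of 0.78, and the acute-phase part, 11 of its 12 genes tested, had 0.27. B2M, IFI27, GBP2 and BST2 had the smallest p, with log2 fold changes of 1.14, 2.08, 0.76 and 2.41. BST2 and LCN2 had siR-Con means of 0.340 and -1.01 with values below 0, so they reached the mean for testing only through siR-GAL3, and their log2 fold changes rest on the floor at 0. B2M, the light chain of MHC class I, and ceruloplasmin (CP) were the most abundant, with means of 32.6 and 16.9 in siR-Con and 72.5 and 23.4 in siR-GAL3. The transcription factors CEBPB and CEBPD had 0.33 (unadjusted p = 0.0646 in limma) and 0.60 (unadjusted p = 0.0172 in limma). CEBPD was 6.31 in siR-Con and 6.32 in siR-GAL3 within set 1, and 4.25 and 7.61 within set 2. A link of these factors to the C/EBP motif printed for C1r and C3 was not tested. No gene of this list had an adjusted p under 0.05, and this list was chosen with earlier results of these data known.

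**Figure D4:**
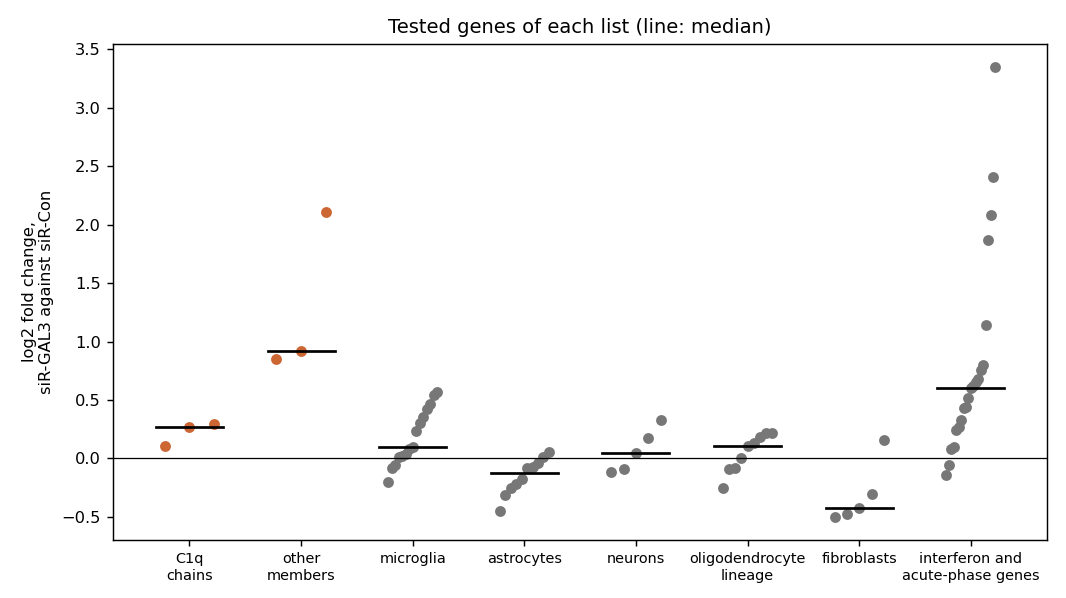
Log2 fold change (siR-GAL3 against siR-Con) of every tested gene in the C1q chains, the other members (C1R, C1S and SERPING1), 5 cell type lists and the interferon and acute-phase list; the line is the median. The other members lie at or above 0.85, and the astrocyte and fibroblast medians lie below 0.

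The members tested shared the direction of the group difference but not the pattern within siR-Con, where replicate 1 was the lowest library for the C1q chains and the highest for C1R, C1S and SERPING1. Their mean standardized log2 value was -0.84, -0.65 and -0.67 in siR-Con and 1.15, 0.45 and 0.56 in siR-GAL3, so siR-GAL3 replicate 1 was the highest. This mean averages over the opposite order of the siR-Con libraries. Among 8489 other genes, those with the highest Pearson r to this profile over the 6 libraries included LCP1, IFI27L2B, PTPRC, GRN, ANXA3, FCRL2, RNASET2, SMUG1 and TRPV2. Their likeness is a description of 6 libraries that share the group difference, so it has no p. LCP1 (L-plastin, an actin-bundling protein of blood cells) and PTPRC (CD45, a phosphatase of all leukocytes) had r of 0.989 and 0.987 and log2 fold changes of 0.66 and 0.43. GRN (progranulin, a lysosomal regulator secreted by microglia) was 27.2 in siR-Con and 36.3 in siR-GAL3. IFI27L2B, of an interferon-induced family, had means of 0.662 in siR-Con and 6.49 in siR-GAL3, so it was ranked only through its siR-GAL3 values. The same holds for SMUG1, with means of 0.944 in siR-Con and 1.17 in siR-GAL3, and for TRPV2, with 0.725 and 1.28.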

How the data were processed

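RNA of cultured rat spinal cord neurons was measured in 6 libraries, 3 of each group. The authors aligned reads with STAR, counted them with HTSeq 0.5.4 and estimated FPKM, followed by removal of batch effects, standardization and a correction inside each group, with tools not given in the sources used here. The deposited values are therefore treated as a linear score rather than FPKM. They keep no read depth, so no counting error can be given. Negative values were replaced by 0 before log2(value + 1). The test was limma (version 3.58.1, R version 4.3.3, trend on), run on the 8495 genes whose mean reached 1, after the script had been tested on simulated data. Adjusted p-values are Benjamini-Hochberg values over all genes tested. Tables were made in Python 3.11.15. Of the 17648 rows, 16309 matched a RefSeq symbol of assembly GRCr8. The members, the gene lists and the motifs were chosen with earlier results of these data known. Named genes were all members, LGALS3, the other complement genes with the smallest p, the 2 most abundant members of each list, the 4 interferon and acute-phase genes with the smallest p, and the 10 genes most like the members. Genes beyond this rule were named after their values were seen. Some genes that the rule names are not reported here. Library sets were found from values that were exactly equal and not 0, of which libraries of one set shared at least 1312 and others at most 264. Whether the replicate numbers pair the libraries is not given in the sources used here, and the main fit treated them as unpaired.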

Additional observations from a re-analysis of the deposited data

How the results depend on the processing

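Each of the 6 members tested kept a log2 fold change above 0 in every alternative run that tested it. These runs included another pseudocount, other scalings, no intensity trend, blocks and each library left out. C1QA had only 0.0053 without siR-Con replicate 1 and 0.035 without siR-GAL3 replicate 1. The scalings moved the median of all genes by less than 0.01. Among the members, 5 had an unadjusted p under 0.05, 4 to 5 with a library left out, 4 with the replicate number as a block and 2 of the 3 still tested at a mean of at least 10. None had an adjusted p under 0.05, against 2 with library sets as blocks and 0 to 2 with a library left out. Their median log2 fold change of 0.57 was 0.51 to 0.63 with a library left out, 0.71 with a pseudocount of 0.1, 0.27 at a mean of at least 10, where fewer members were tested, and 0.30 without genes that held a value below 0, which removes SERPING1. Over all genes, 736 had an unadjusted p under 0.05, against 1623 without a filter, 121 at a mean of at least 10, 1174 with library sets as blocks and 344 to 1388 with a library left out. An adjusted p under 0.05 was found for 0 genes, against 6 with the replicate block, 106 with library sets as blocks and 0 to 167 with a library left out. The study criteria were met by 27 genes, against 5 at a mean of at least 10, 15 without genes that held a value below 0, 22 to 29 with a library left out and 367 on values that were not log-transformed, where the threshold is 1 unit and no median on the log2 scale can be given. The same-numbered libraries of both groups had correlations of their deviations of -0.17, -0.07 and 0.04 over genes. Batch effects had been removed and differences within groups corrected before, so these correlations cannot show whether the replicate number pairs the libraries. The cause of these moves was not tested beyond the number of genes or libraries. The unknown depth leaves the counting error of every value unknown.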
